A study of Rattus norvegicus with 6 samples.

Results

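The genes described here are 10 genes that mark disease-associated microglia (DAM), SPP1, CD68, GPNMB, TREM2, TYROBP, CST7, LPL, ITGAX, AXL and CLEC7A. They were picked by symbol, and all 10 were found among the 17648 genes listed for this dataset. A mean expression value of at least 1 over the 6 libraries was required for testing, which 8 of the 10 reached, as did 8495 genes in all. CST7 and CLEC7A did not. The dataset came from primary neurons of the spinal cord, taken from neonatal rats of the Sprague-Dawley strain and cultured for 3 days, with Ara-C at 0.05 mg/mL added 24 h after plating against dividing cells. The 6 libraries fall into Glu + siR-Con, given a control siRNA, and Glu + siR-GAL3, given an siRNA against GAL3 (the gene LGALS3), with 3 libraries each. The study's methods describe 10 μM glutamate for 1 h and then 16 h without glutamate for both groups, whereas the sample labels give saline, that is 0 μM glutamate, for the controls and call the other group a GAL3 knockout. If the labels were right, glutamate and siRNA could not be told apart. A single siRNA against GAL3 was used, and nothing says that the 3 libraries of a group came from separate cultures, so p-values measure only the spread between these libraries. The study's methods also describe a correction for differences within groups before the values were deposited. That spread, and with it the p-values and the overlap of groups, may therefore have been altered by an unknown amount.

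Microglia are the resident macrophages of the spinal cord and brain. Around dying neurons, damaged myelin or protein deposits they lower genes of their resting program and raise a set of phagocytic, lysosomal and lipid-handling genes, which is the state called DAM. Part of this switch depends on TREM2, a surface receptor for lipids and apolipoproteins that signals through its adaptor TYROBP (DAP12). Galectin-3, the protein silenced here, is itself made by such microglia and has been described as a ligand of TREM2. The comparison asks how the transcripts of this program differed when GAL3 was silenced in injured cultures.

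The libraries were checked first, and here as elsewhere the values of a group follow the replicate numbers 1, 2 and 3. LGALS3 was 77.4, 54.4 and 62.4 in the siR-Con libraries and -1.64, 32.3 and 18.5 in the siR-GAL3 libraries, so that the groups did not overlap. The cultures were labelled as neurons, but RBFOX3, the gene of the neuronal nuclear antigen NeuN, lay between 0.300 and 0.429. Of other neuronal genes, MAP2 lay between 13.1 and 19.0 and TUBB3 between 4.03 and 5.19, while NEFH was at most 0.0210. GFAP of astrocytes lay between 514.8 and 757.7 and MBP of myelin between 628.6 and 919. The RNA therefore came from mixed cells, and fewer cells of a type cannot be told apart from less RNA per cell in such samples. Exactly equal values divided the libraries into 3 sets. Libraries in the same set had 1312 to 1463 equal values above or below 0, and other pairs 238 to 264. Replicate 1 of each group formed the first set. Replicate 3 of siR-GAL3 was in the second, together with siR-Con replicates 2 and 3. This left siR-GAL3 replicate 2 by itself, and it was also far from the rest on the first principal component, which carried 65.2% of the variance. Results of the members are therefore given with and without siR-GAL3 replicate 2, and those of other genes where the call changed. No member had equal values in any pair of libraries.

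Of the 8 members tested, SPP1, CD68 and LPL were higher in every Glu + siR-GAL3 library than in every Glu + siR-Con library, and the groups overlapped for the other 5, TYROBP, TREM2, GPNMB, ITGAX and AXL. Of all genes tested, 10.3% were higher without overlap. The 3 genes also had an unadjusted p under 0.05 in limma, against 4.41% of all genes tested in that direction. No member had a Benjamini-Hochberg adjusted p under 0.05 over all genes, and 0.0% of all genes did, although 736, or 8.66%, had an unadjusted p under 0.05. None of the 8 was lower with an unadjusted p under 0.05, against 4.25% of all genes. The median log2 fold change of the 8 members was 0.17, against -1.19e-05 over all genes tested. Without siR-GAL3 replicate 2, the adjusted p of SPP1, CD68 and LPL was under 0.05 in limma, which 1.02% of all genes reached in that direction. Once the library set entered as a block it was so for CD68 and LPL, against 0.895% of all genes. Because siR-GAL3 replicate 2 is alone in its set, the block leaves it no part in the fitted difference. Both fits thus set aside the same library and are not separate checks, here and for the genes below.

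**Figure D1:**
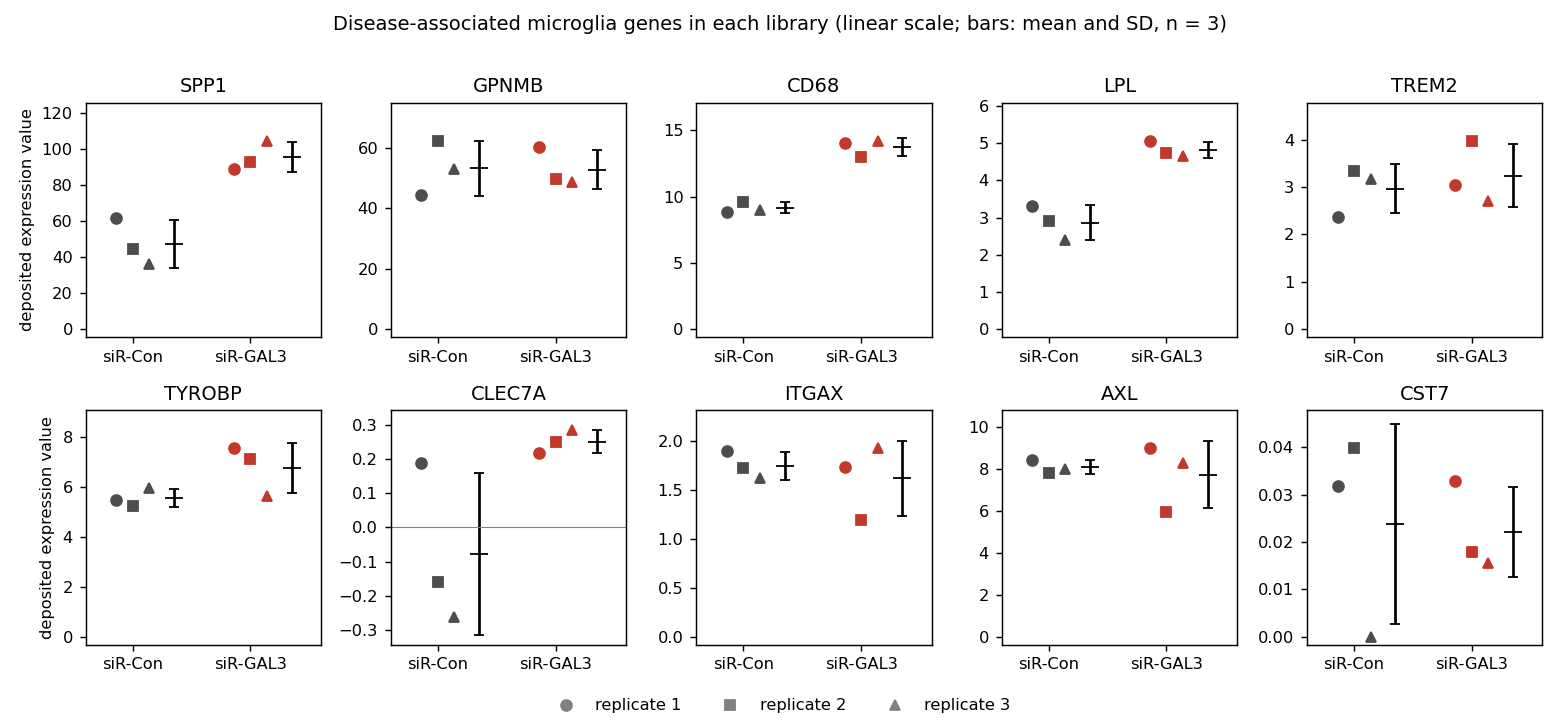
Deposited expression values (linear scale, y axis) of the 10 genes in the siR-Con (grey) and siR-GAL3 (red) libraries, with the replicate number given by the marker and the mean and SD (n = 3) beside each group. SPP1 in siR-GAL3 lies between 88.6 and 104.5, above the highest siR-Con value of 61.7, whereas the GPNMB groups overlap.

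SPP1 encodes osteopontin, a secreted phosphoprotein that binds integrins and CD44 and is among the transcripts that reactive microglia raise most. It was 61.7, 44.4 and 36.00 in the siR-Con libraries and 88.6, 92.9 and 104.5 in the siR-GAL3 libraries. The controls were spread more widely than the siR-GAL3 libraries, and siR-Con replicate 1 was the highest of them. The means were 47.4 ± 13.1 and 95.3 ± 8.25 (SD, n = 3 each), a ratio of 2.01. By limma, SPP1 had a log2 fold change of 1.03 (standard error 0.19, unadjusted p = 0.000926, adjusted p = 0.149). SPP1 was higher in siR-GAL3 within both library sets that held both groups, at 88.6 against 61.7 in the first and 104.5 against a mean of 40.2 in the second. The adjusted p was 0.0436 without siR-GAL3 replicate 2 and 0.0736 with a block for the library set. Without siR-Con replicate 1 it was 0.0388 at a log2 fold change of 1.23, and with each of the other 4 libraries left out it lay between 0.29 and 0.739.

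CD68 encodes macrosialin, a heavily glycosylated membrane protein of the endosomes and lysosomes of phagocytes. Its values were 8.84, 9.62 and 9.005 in the siR-Con libraries and 14.1, 12.99 and 14.2 in the siR-GAL3 libraries. The spread within each group was small beside the gap between them, with means of 9.15 ± 0.412 and 13.8 ± 0.671 (SD, n = 3 each), which was 50.3% higher in siR-GAL3. For CD68, limma gave a log2 fold change of 0.54 (standard error 0.07, unadjusted p = 0.000121, adjusted p = 0.101). The adjusted p fell to 0.0071 without siR-GAL3 replicate 2 and to 0.0135 with a block for the library set, and with each of the other 5 libraries left out it lay between 0.197 and 0.523.

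LPL encodes lipoprotein lipase, which splits the triglycerides of lipoproteins and frees fatty acids for uptake. LPL was 3.31, 2.90 and 2.39 in the siR-Con libraries and 5.06, 4.73 and 4.65 in the siR-GAL3 libraries. The lowest siR-GAL3 value thus lay above the highest control. The mean was 2.87 ± 0.458 in siR-Con and 4.81 ± 0.219 in siR-GAL3 (SD, n = 3 each), 68.0% higher. In limma this gave a log2 fold change of 0.60 (standard error 0.10, unadjusted p = 0.000527, adjusted p = 0.136). The adjusted p was 0.0254 without siR-GAL3 replicate 2 and 0.0276 with a block for the library set, and with each of the other 5 libraries left out it lay between 0.12 and 0.60. In an exact permutation test, two-sided, SPP1, CD68 and LPL each had p = 0.1, the smallest that 3 against 3 allow.

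GPNMB encodes a transmembrane glycoprotein of phagocytes and pigment cells that is raised under lysosomal stress. It was 44.3, 62.4 and 53.1 in the siR-Con libraries and 60.1, 49.7 and 48.6 in the siR-GAL3 libraries. The siR-GAL3 range lay inside that of the controls. With means of 53.2 ± 9.05 and 52.8 ± 6.32 (SD, n = 3 each), the log2 fold change was -0.00 (-0.00375, standard error 0.14, adjusted p = 0.993 in limma). Its sign depended on the library left out. GPNMB was higher in siR-GAL3 within the first library set, at 60.1 against 44.3, and lower within the second, at 48.6 against a mean of 57.7.

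The promoter sequences of SPP1 and CD68, whose groups did not overlap, and of GPNMB, the abundant member whose groups did, are shown for comparison as the 250 bases before the annotated start of transcription in RefSeq on GRCr8. They lie at chr14:5619805-5620054, chr10:54882442-54882691 and chr4:79340878-79341127, on the minus strand for SPP1 and CD68 and the plus strand for GPNMB, and are written 5′ to 3′ along the gene with motif matches in capitals.
SPP1: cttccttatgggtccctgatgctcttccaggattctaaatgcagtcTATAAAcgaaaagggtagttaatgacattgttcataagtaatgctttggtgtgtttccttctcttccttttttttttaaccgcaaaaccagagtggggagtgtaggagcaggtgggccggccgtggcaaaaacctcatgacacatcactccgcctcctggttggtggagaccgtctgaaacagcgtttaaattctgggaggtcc
CD68: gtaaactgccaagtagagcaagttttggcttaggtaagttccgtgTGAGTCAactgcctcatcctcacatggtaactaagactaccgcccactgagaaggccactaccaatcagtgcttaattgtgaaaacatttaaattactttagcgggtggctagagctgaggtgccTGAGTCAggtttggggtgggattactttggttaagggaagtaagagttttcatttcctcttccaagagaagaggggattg
GPNMB: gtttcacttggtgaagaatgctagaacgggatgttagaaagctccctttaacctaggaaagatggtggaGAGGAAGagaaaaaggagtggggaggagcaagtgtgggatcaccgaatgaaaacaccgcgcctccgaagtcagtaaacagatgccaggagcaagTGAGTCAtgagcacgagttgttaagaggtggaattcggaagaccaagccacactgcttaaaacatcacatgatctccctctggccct

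A window of this kind was matched for 8 of the 10 members, all but LPL and TYROBP, and was searched on both strands for 4 motifs chosen after the expression values were known. The AP-1 letters TGANTCA were found at 2 places in the CD68 window, where they begin 205 and 80 bases before the start, and also in those of GPNMB and ITGAX, so that 3 of 8 members held them, against 6.34% of all 33469 windows of this length. The letters GAGGAAG, a sequence that PU.1 binds, were in 3 of 8 windows, those of AXL, GPNMB and TREM2, against 10.2% of all windows. TATAAA was in the SPP1 window only, beginning 204 bases before the start, against 12.9% of all. The E-box CACGTG was found in none of the 8, against 5.59% of all windows. No matches of different motifs overlapped. The AP-1 letters thus occurred in the windows of CD68, whose groups did not overlap, and of members whose groups did.

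TREM2 and TYROBP form the receptor complex of the program. TREM2 was 2.37, 3.34 and 3.18 in the siR-Con libraries and 3.03, 3.98 and 2.70 in the siR-GAL3 libraries. The groups overlapped, and the highest value was that of siR-GAL3 replicate 2. Its log2 fold change was 0.09 (standard error 0.14, adjusted p = 0.762 in limma), and it was -0.03 without siR-GAL3 replicate 2. TYROBP, whose cytoplasmic activation motif recruits the kinase SYK, was 5.48, 5.25 and 5.96 in the siR-Con libraries and 7.56, 7.13 and 5.64 in the siR-GAL3 libraries. For TYROBP, 2 siR-GAL3 libraries lay above all controls, and siR-GAL3 replicate 3 lay below siR-Con replicate 3. The log2 fold change was 0.24 (standard error 0.11, unadjusted p = 0.0645, adjusted p = 0.58 in limma), and without siR-GAL3 replicate 3 it was 0.35 (unadjusted p = 0.00711, adjusted p = 0.535).

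ITGAX, AXL and CLEC7A encode further surface receptors. ITGAX is CD11c, the alpha-X integrin of complement receptor 4, and was 1.89, 1.72 and 1.62 in siR-Con and 1.73, 1.19 and 1.92 in siR-GAL3, in the order of the replicates. AXL is a receptor kinase of the TAM family that recognizes dying cells through GAS6, and was 8.46, 7.84 and 8.02 in siR-Con and 9.01, 5.96 and 8.30 in siR-GAL3. In both genes siR-GAL3 replicate 2 was the lowest of the 6 libraries, and the groups overlapped. Their log2 fold changes in limma were -0.08 for ITGAX (standard error 0.11, adjusted p = 0.756) and -0.07 for AXL (standard error 0.14, adjusted p = 0.804). Without siR-GAL3 replicate 2 both turned above 0, to 0.04 for ITGAX and 0.08 for AXL, with adjusted p of 0.777 and 0.516.

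CLEC7A, the beta-glucan receptor dectin-1, was 0.187, -0.159 and -0.263 in the siR-Con libraries and 0.218, 0.249 and 0.285 in the siR-GAL3 libraries. All 3 siR-GAL3 values lay above all controls, as for 9.01% of all listed genes, but the values were low and 2 controls were below 0, so no fold is given. In a limma fit without the filter on low values, the adjusted p of CLEC7A was 0.442. CST7, cystatin F, an inhibitor of lysosomal cysteine proteases that is a hallmark of DAM in mice, was at most 0.0398 in any library. Its means were 0.0238 ± 0.0210 and 0.0221 ± 0.00941 (SD, n = 3 each), so that CST7 was barely above 0 in both groups. In the same fit its adjusted p was 0.974.

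**Figure D2:**
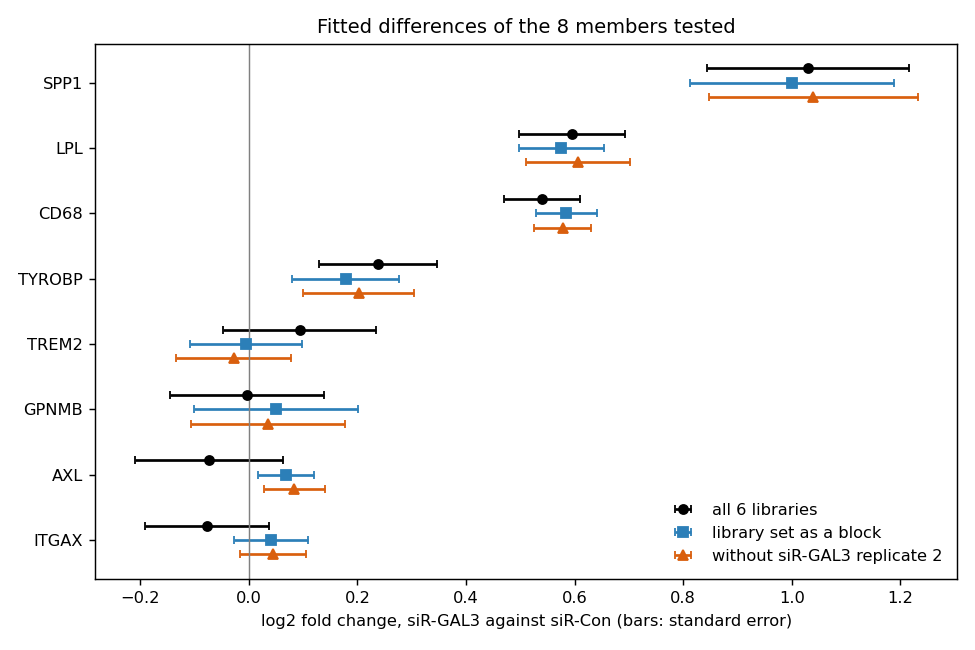
Log2 fold change (x axis, siR-GAL3 against siR-Con, bars give the standard error) of the 8 members tested, fitted over all 6 libraries (black), with a block for the library set (blue) and without siR-GAL3 replicate 2 (orange). SPP1, LPL and CD68 stay near 1.03, 0.60 and 0.54, while TREM2, GPNMB, AXL and ITGAX change sign between fits.

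The values started as FPKM, which is scaled to transcript length, but were corrected afterwards by steps whose effect on the scale is not known, so the order of levels between members describes the deposited values only. In Glu + siR-Con, GPNMB had the highest level at 53.2 and SPP1 the next at 47.4, and their libraries overlapped. CD68, AXL and TYROBP followed at 9.15, 8.11 and 5.56, each apart from its neighbours. TREM2 at 2.96 and LPL at 2.87 overlapped, ITGAX was at 1.74, and CST7 and CLEC7A overlapped near 0. In Glu + siR-GAL3, SPP1 led at 95.3 and no longer overlapped with GPNMB at 52.8, and LPL at 4.81 lay above TREM2 at 3.24 without overlap. There AXL at 7.75 and TYROBP at 6.78 overlapped. SPP1 made up 45.2%, 32.3% and 30.3% of the summed level of the 10 members in the siR-Con libraries and 46.8%, 51.9% and 54.8% in the siR-GAL3 libraries. GPNMB was above SPP1 in siR-Con replicates 2 and 3 alone.

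Levels of microglial markers were set beside these results. Of 10 homeostatic microglia genes, all were listed and 8 were tested, with a median log2 fold change of 0.02. Only SELPLG had an unadjusted p under 0.05, with a log2 fold change of 0.26 (adjusted p = 0.193 in limma). Its adjusted p was 0.0417 without siR-GAL3 replicate 2 and 0.101 with a block for the library set. Among the others, CX3CR1, the fractalkine receptor, and P2RY12, a purine receptor of ramified microglia, had log2 fold changes of 0.02 each. Without siR-GAL3 replicate 2 these were 0.23 and 0.08. In that fit CSF1R was higher, at 0.28 (unadjusted p = 0.0287 in limma), and OLFML3 lower, at -0.29 (unadjusted p = 0.0318 in limma). The summed level of the homeostatic list lay between 39.9 and 48.7 in siR-Con and between 39.0 and 50.8 in siR-GAL3, so the groups overlapped. Without siR-GAL3 replicate 2 the median of the homeostatic list was 0.03. In contrast, of 12 genes shared by microglia and other macrophages, 11 were tested, with a median log2 fold change of 0.29. Of these, 7 were higher with an unadjusted p under 0.05, against 4.41% of all genes tested. PTPRC (CD45) and AIF1 (IBA1) had the smallest p, with log2 fold changes of 0.43 and 0.57 and an adjusted p of 0.149 each in limma. As for CD68 and LPL, the adjusted p of PTPRC and AIF1 was under 0.05 with a block for the library set, at 0.0237 and 0.0196. It was so too without siR-GAL3 replicate 2, at 0.0183 and 0.0169. In each of these fits 3 of the 11 genes passed, against 0.895% and 1.02% of all genes in that direction. Without siR-GAL3 replicate 2, IRF8 was also higher with an unadjusted p under 0.05 in limma (0.0444, adjusted p = 0.294). The summed level of this list was 118.8 to 142.7 in siR-Con and 153.5 to 170.3 in siR-GAL3, without overlap. SPP1, CD68 and LPL were likewise higher without overlap, but whether they followed this sum from library to library within a group was not tested. No defining marker of either list was at 0.

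In a comparison added after the values were seen, each member was set against the mean log2(value + 1) of the 11 pan-microglia genes in the same library, a mean that was itself 0.28 higher in siR-GAL3. SPP1 lay 3.10, 2.42 and 2.17 log2 units above that mean in the siR-Con libraries and 3.14, 3.25 and 3.52 above it in the siR-GAL3 libraries. The groups of SPP1 stayed apart, though siR-Con replicate 1 came close to the lowest siR-GAL3 library. CD68 lay 0.34 ± 0.07 above the mean in siR-Con and 0.60 ± 0.12 in siR-GAL3 (SD, n = 3 each), without overlap. LPL was below it in both groups, at -1.06 ± 0.263 and -0.745 ± 0.0406 (SD, n = 3 each), and on this scale its groups overlapped. The differences of SPP1, CD68 and LPL were thus 0.74, 0.26 and 0.31, against log2 fold changes of 1.03, 0.54 and 0.60 (exact permutation test, two-sided p of 0.1, 0.1 and 0.2, the smallest possible being 0.1). Of all genes tested, 0.471% were higher without overlap on this scale. GPNMB and AXL were lower without overlap, as were 59.3% of all genes, and TREM2, TYROBP and ITGAX overlapped. Set against the mean of the 8 homeostatic genes, which differed by only 0.00207 between the groups, the members kept nearly their own fold changes, and SPP1, CD68 and LPL were higher without overlap, against 2.3% of all genes. Such ratios show unequal change and not which of their parts changed.

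**Figure D3:**
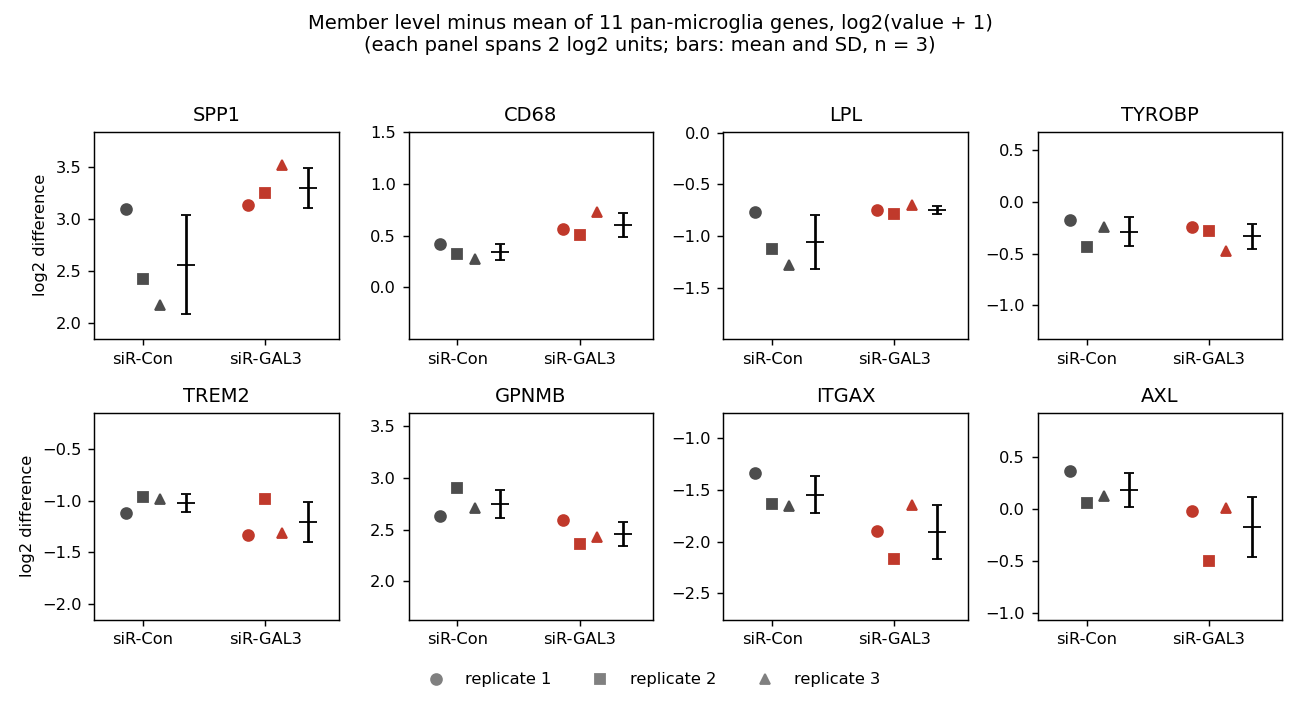
Level of each of the 8 members tested minus the mean of 11 pan-microglia genes in the same library (y axis, log2 units of value + 1, each panel spanning 2 units), with siR-Con in grey, siR-GAL3 in red, the replicate number by marker and the mean and SD (n = 3). SPP1 and CD68 are higher in siR-GAL3 without overlap, at 2.56 against 3.30 for the means of SPP1, LPL overlaps, and GPNMB and AXL are lower.

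Of 25 further genes of the DAM program, 23 were listed and 19 tested. An unadjusted p under 0.05 was found for 6 higher and 1 lower genes, against 4.41% and 4.25% of all genes tested. The median log2 fold change of the 19 was 0.03. The members with the smallest p were CTSZ, a lysosomal carboxypeptidase, and CCL6, a chemokine, with log2 fold changes of 1.02 and 0.61 and an adjusted p of 0.0921 each in limma. With a block for the library set the adjusted p was 0.00692 and 0.0173, and without siR-GAL3 replicate 2 it was 0.00799 and 0.00941. B2M, the light chain of MHC class I, passed in the same fits, at 0.00692 and 0.0138, against 0.101 over all 6 libraries. B2M, CTSS, SERPINE2 and LYZ2 made up the other higher ones, and CTSS is also counted in the pan-microglia list. LYZ2 at 3.41 rests on siR-Con replicates 2 and 3, which were listed below 0. CSF1, a growth factor of microglia, was the lower gene, at -0.26. APOE, which rises in DAM in mice, held 1 value per library set, 410.5 in the first, 420.7 in the second and 462.2 in siR-GAL3 replicate 2, so its values cannot tell the groups apart. The proteases CTSB and CTSL had values of -0.16 and -0.19 and CTSD of 0.20, with adjusted p of 0.591, 0.586 and 0.585. Without siR-GAL3 replicate 2, 8 of the 19 were higher with an unadjusted p under 0.05 in limma, as 1388 of all genes were in either direction. CTSD and CD9 were added, at 0.26 and 0.13 (unadjusted p of 0.0112 and 0.0401). CTSL and CD63 were lower in that fit, at -0.29 and -0.21 (unadjusted p of 0.00307 and 0.0135, adjusted p of 0.0886 and 0.177).

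Downstream of the receptors, 8 of 14 genes of TREM2 and C-type lectin receptor signalling were tested. Against 4.41% of all genes tested, 3 were higher with an unadjusted p under 0.05. These were LAT2, an adaptor of activation-motif receptors, PTPN6, the phosphatase SHP-1, and VAV1, with log2 fold changes of 0.41, 0.41 and 0.18 and adjusted p of 0.129, 0.174 and 0.535 in limma. Without siR-GAL3 replicate 2 the adjusted p was 0.0236 for both LAT2 and PTPN6, and with a block for the library set it was 0.0478 for LAT2 and 0.0504 for PTPN6. SYK, the kinase that TYROBP recruits, was under the filter, between 0.67 and 0.98. The sheddases of TREM2, ADAM10 and ADAM17, had log2 fold changes of -0.13 and 0.02. Of 5 partners of ITGAX, related integrin chains and the ligand ICAM1, 4 were higher with an unadjusted p under 0.05, against the same 4.41%. Among them were ITGB2, the beta chain that ITGAX pairs with, at 0.30 and ITGAL at 0.41 (adjusted p of 0.534 and 0.305 in limma). The adjusted p of ITGAL was 0.0173 with a block for the library set and 0.0132 without siR-GAL3 replicate 2. ITGAM and ITGAD held identical values and count as 1 measurement, with an adjusted p of 0.51. It was 0.0417 without that library and 0.0862 with a block for the library set. The difference between ITGAX and its partners was not tested.

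The receptors and partners of SPP1, LPL and AXL gave no such counts, and no list of CD68 partners was examined. None of the 5 osteopontin receptors tested had an unadjusted p under 0.05, with a median log2 fold change of -0.11, and the smallest p was that of CD44, at -0.19 (adjusted p = 0.585 in limma). ITGAV, at -0.37, rested on siR-GAL3 replicate 2, and without that library it was -0.10. Of 5 partners of lipoprotein lipase tested, none had an unadjusted p under 0.05. LRP1 and ANGPTL4 had log2 fold changes of -0.42 and -0.12, and that of LRP1 was -0.11 without siR-GAL3 replicate 2. GPIHBP1 and APOC2, the anchor and the cofactor of the enzyme, were under the filter. The 4 TAM receptors and ligands besides AXL lay between -0.05 for GAS6 and 0.06 for TYRO3, and none had an unadjusted p under 0.05.

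**Figure D4:**
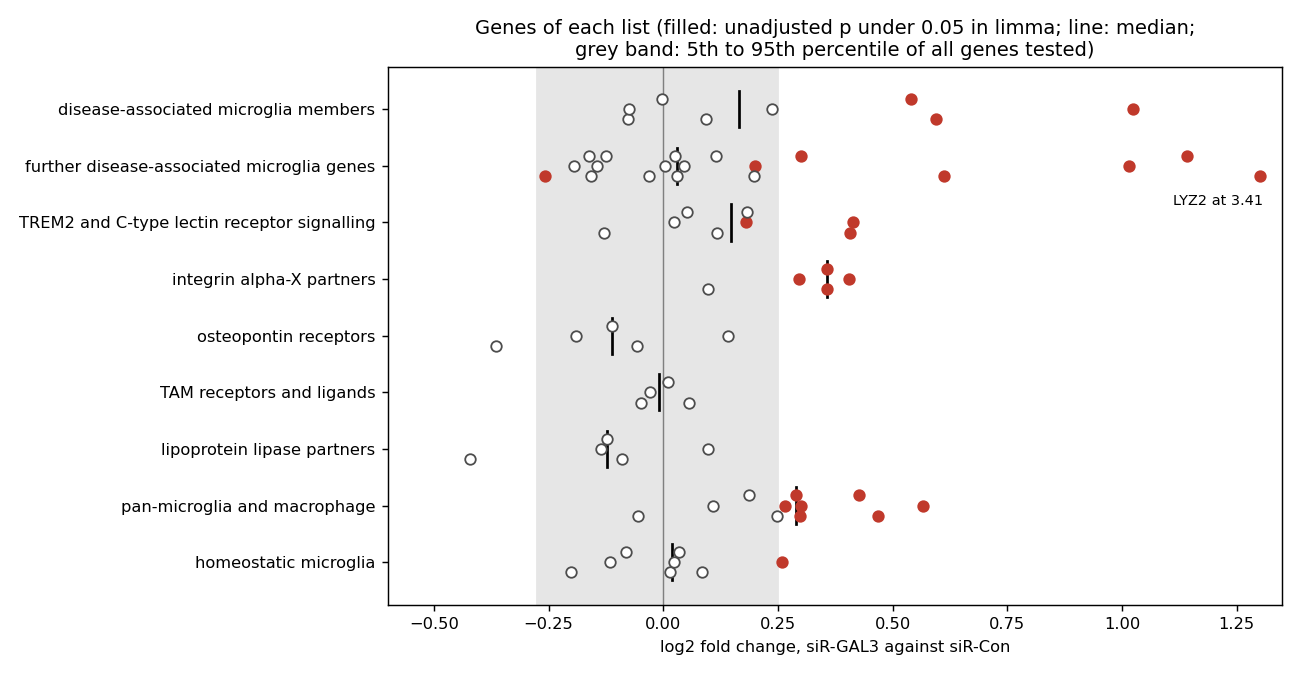
Log2 fold changes (x axis, siR-GAL3 against siR-Con) of the tested genes of 9 lists, filled where the unadjusted p in limma was under 0.05, with the median of each list as a line and the 5th to 95th percentile of all genes tested, -0.28 to 0.25, as a band. LYZ2 is drawn at the edge of the axis. In the DAM list 3 genes lie beyond the band, and the medians are 0.29 for the pan-microglia list and 0.02 for the homeostatic list.

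Other cells that could carry these transcripts were examined by their markers. Of 8 astrocyte genes, 4 were lower with an unadjusted p under 0.05, against 4.25% of all genes tested. Their summed level was 927.6 to 1069 in siR-Con and 801.5 to 865.7 in siR-GAL3. Of 5 fibroblast and meningeal genes tested, 3 were lower by the same measure, against the same share, with sums of 43.05 to 50.6 and 33.0 to 38.1. The groups did not overlap in either sum, and the part of these cells in the results was not tested. Of 4 neuronal genes tested, STMN2 was higher, at 0.33 (adjusted p = 0.324 in limma). None of the 6 oligodendrocyte and 3 progenitor genes tested had an unadjusted p under 0.05. Without siR-GAL3 replicate 2, 1388 of all genes tested had one in limma. In that fit SYT1 of neurons, SLC1A3 of astrocytes and the progenitor genes OLIG2 and SOX10 were higher, with unadjusted p of 0.0307, 0.0284, 0.0483 and 0.0377. LUM of fibroblasts was lower, with 0.0027. The adjusted p of these genes were 0.255, 0.247, 0.303, 0.275 and 0.0838. Of the blood cell markers, S100A8, S100A9, MPO and ELANE of neutrophils and other myeloid cells summed to at most 0.0552 in any library, and NKG7, KLRD1, PRF1 and GZMB of natural killer and cytotoxic T cells to at most 0.0319, which is at or near 0. The monocyte markers LY6C and CCR2 and the T cell markers CD3E and CD3D were not analysed here. The endothelial genes CDH5, KDR and FLT1 summed to at most 1.15, without PECAM1 and CLDN5, which were not analysed here either.

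Over the 6 libraries, the genes whose log2 profile was most like the mean profile of the 8 members were PNP, SMUG1, PTPRC, SLFN2 and COTL1, with Pearson's r between 0.991 and 0.993. PTPRC is a leukocyte phosphatase, and COTL1 binds actin filaments. The 6 points share the 2 groups and the library sets, so these values only describe likeness. The log2 fold changes of SLFN2 and PNP were 0.81 and 0.37. All 5 genes were higher in every siR-GAL3 library than in every siR-Con library, which their choice by likeness to the members' profile favoured.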

How the data were processed

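Poly(A) RNA selected from the total RNA of 6 samples was sequenced on an Illumina platform. According to the study's methods and supplement, the authors aligned reads with STAR, counted them per gene with HTSeq and estimated FPKM, after which batch effects were removed, the data were standardized and differences within groups were corrected, with tools not given in the sources used here. The genome build of the alignment is not given either. The deposited values were treated as an expression score on a linear scale, not as FPKM, because 3.86% of the 105888 values were negative. Totals per library ranged from 64313 to 64714, so depth is unknown and no counting error can be given.

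The test used log2(value + 1), with 0 in place of any value below 0. The 8495 genes whose mean over the 6 libraries reached 1 entered a limma fit (limma 3.58.1, R 4.3.3) that allowed the variance to follow the mean level, and p-values were adjusted by Benjamini-Hochberg over all of them. On this scale, changes of low genes are understated. Single genes were compared by exact permutation (SciPy 1.17.1). The members, gene lists and tests were chosen with earlier results of these data known. Genes named were all members, the 2 tested genes of each list with the smallest p, others that a small count or a background sentence needed, chosen after their values were seen, and the 5 most similar genes. Alternatives were a pseudocount of 0.1, other filters, quantile and median-ratio scaling, no trend, no log, other treatments of values below 0, blocks by replicate number and library set, and each library left out, and levels relative to microglial genes were added after the data were seen. The replicate numbers were checked for pairing, and the correlation of deviations of same-numbered libraries lay between -0.17 and 0.0441. Gene symbols and sequences come from RefSeq on GRCr8, where all 10 members matched a symbol.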

Additional observations from a re-analysis of the deposited data

How the results depend on the processing

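SPP1, CD68, LPL and TYROBP were higher in siR-GAL3 under each alternative in which they were tested, with log2 fold changes on the log scale of 0.85 to 1.23, 0.52 to 0.59, 0.50 to 0.74 and 0.17 to 0.35. Their adjusted p in limma ranged from 0.0388 to 0.739, from 0.0071 to 0.523, from 0.0254 to 0.60 and from 0.386 to 0.874. GPNMB, TREM2, ITGAX and AXL changed sign. With the library set as a block they were at 0.0494, -0.00535, 0.0404 and 0.068, and GPNMB was at 0.014 after quantile normalization. With each library left out in turn, GPNMB lay between -0.127 and 0.115, TREM2 between -0.0284 and 0.186, ITGAX between -0.164 and 0.0445 and AXL between -0.179 and 0.0836. The median of the members was 0.745 units without the log transformation, which is another scale, and 0.106 to 0.267 with each library left out, highest without siR-GAL3 replicate 3 and lowest without siR-Con replicate 1. Members higher with an unadjusted p under 0.05 numbered 3 of 8 in the fit reported, against 4.41% of all genes tested. They numbered 2 of 5 with a mean of at least 5 and 4 of 10 without a filter. In these fits 260 and 1623 of all genes had an unadjusted p under 0.05 in either direction. Without siR-GAL3 replicate 3 it was 4 of 8 members, where 575 genes did, and every other alternative gave 3 of 8.

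Over all genes, the number with an adjusted p under 0.05 was 0 in the fit reported, 6 with the replicate block, 106 with a block for the library set, and 0 to 167 with each library left out, where it was 167 without siR-GAL3 replicate 2, 17 without siR-Con replicate 1, 4 without siR-Con replicate 3 and 1 without siR-GAL3 replicate 1. The number with an unadjusted p under 0.05 was 736, with 1623 among all genes without a filter, 260 among those with a mean of at least 5, 1174 with a block for the library set, and 344 to 1388 with each library left out, lowest without siR-Con replicate 3 (350 without siR-Con replicate 2) and highest without siR-GAL3 replicate 2 (1249 without siR-GAL3 replicate 1). The cause of these shifts was not tested, other than the number of genes for the filters. No pairing by replicate number was seen, but the values had been corrected for batch and for differences within groups. The check thus cannot tell whether the cultures were paired. The block on replicate numbers changed no call of a member.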
